A study of Mus musculus with 6 samples.

Results

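The genes described here are the 6 subunits of the MCM helicase (Mcm2, Mcm3, Mcm4, Mcm5, Mcm6 and Mcm7), the kinase pair Cdc7 and Dbf4, and the helicase loaders Cdc6 and Cdt1. They were taken by gene name, a rule that uses no measured value although the set was proposed with earlier results of these data known, and are 10 of the 55487 genes in the deposited table. All 10 had enough reads to be tested. Their RNA was measured by RNA-seq in GFP and tdTomato double-positive cells sorted from mouse retinas at postnatal day 7.5 (P7.5). There were 3 libraries from control pups and 3 from pups lacking the clock gene Bmal1 in endothelial cells. RNA of other cell types was abundant in all of them, as described below. Levels are thus those of the sorted material and cannot be assigned to endothelial cells alone.

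The control pups were tdTomato FL/+;Pdgf-icreER and the Bmal1;CKO pups were Bmal1 FL/FL;tdTomato FL/+;Pdgf-icreER, on a C57BL/6 J background. Both groups received tamoxifen daily from P0.5 to P2.5, so both carried an active Cre and the tdTomato reporter, and the control group carried no floxed Bmal1 allele. The Cre is expressed from Pdgf regulatory sequence and marks its cells with GFP, and a cell enters the sort only if it also recombined the tdTomato reporter. Per the study's description, retinas were collected at noon. The study describes the 3 libraries of a group as animals, and whether retinas were pooled is not stated, so p-values measure the spread between these libraries. Libraries are numbered as the table's columns are, with 1 to 3 control and 4 to 6 Bmal1;CKO.

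Before a cell copies its DNA, the origin recognition complex marks replication origins and, with CDC6 and CDT1, loads the ring of MCM2 to MCM7 onto each of them in an inactive form. This loading is called licensing. In S phase the CDC7 kinase, which is active only when bound to its partner DBF4, phosphorylates the MCM ring, and the ring joins CDC45 and the GINS complex to become the working helicase. Geminin blocks CDT1 after S phase has begun, so that no origin is licensed again in the same cycle. Endothelial cells of the growing retinal vessel network divide in the first postnatal week, and MCM genes are widely used as markers of cells that are able to replicate. Many licensing genes are known targets of E2F transcription factors.

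The start-site regions of the members are shown first because E2F matches divide them. Each window runs from 250 bases before to 50 bases after the RefSeq start of transcription (GRCm38.p6), and 9 of the 10 members matched a window. The E2F search used the letters TTTCCCGC, TTTCGCGC, TTTGCCGC and TTTGGCGC on both strands. At least 1 match lay in the windows of Mcm3, Mcm5, Mcm6, Mcm7, Cdc6 and Cdt1, which is 6 of 9, against 704 of 27025 gene symbols with a window (2.60%) and 3.29% of those that code for protein. No match lay in the windows of Mcm2, Cdc7 and Dbf4. A match is a description of letters and not evidence of binding.

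The 30-base stretches below hold the matches of the members other than Mcm6, read 5′ to 3′ on the strand of the gene with the matched letters in capitals. They lie at chr1:20820275-20820304 and chr1:20820263-20820292 (Mcm3, minus strand), chr8:75109347-75109376 (Mcm5, plus), chr5:138172030-138172059 and chr5:138171849-138171878 (Mcm7, minus), chr11:98908002-98908031 (Cdc6, plus) and chr8:122568035-122568064 (Cdt1, plus). In Mcm5 a match on each strand overlaps the other, giving a 12-letter capital run, and in the second Mcm7 stretch a CCAAT overlaps the E2F match.
Mcm3, first: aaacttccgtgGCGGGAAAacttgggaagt
Mcm3, second: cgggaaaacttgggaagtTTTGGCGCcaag
Mcm5: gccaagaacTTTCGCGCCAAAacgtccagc
Mcm7, first: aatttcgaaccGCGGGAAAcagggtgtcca
Mcm7, second: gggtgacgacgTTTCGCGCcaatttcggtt
Cdc6: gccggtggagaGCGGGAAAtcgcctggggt
Cdt1: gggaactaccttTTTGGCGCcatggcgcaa

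The 3 windows that follow belong to members that are set apart in the description below. Mcm6 (chr1:128359656-128359955, minus strand) is the subunit whose share of the MCM transcripts was lower in every Bmal1;CKO library, Cdc7 (chr5:106964072-106964371, plus strand) is the member whose groups did not overlap, and Dbf4 (chr5:8422667-8422966, minus strand) encodes the partner of CDC7. Capitals again mark E2F matches, and the first capital run of Mcm6 is again a pair of overlapping matches on opposite strands.
Mcm6: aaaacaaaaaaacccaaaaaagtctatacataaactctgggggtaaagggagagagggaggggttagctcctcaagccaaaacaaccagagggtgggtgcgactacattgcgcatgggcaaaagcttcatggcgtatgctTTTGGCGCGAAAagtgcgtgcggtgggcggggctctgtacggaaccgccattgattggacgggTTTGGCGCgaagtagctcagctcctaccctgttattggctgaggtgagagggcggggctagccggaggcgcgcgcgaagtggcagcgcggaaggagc
Cdc7: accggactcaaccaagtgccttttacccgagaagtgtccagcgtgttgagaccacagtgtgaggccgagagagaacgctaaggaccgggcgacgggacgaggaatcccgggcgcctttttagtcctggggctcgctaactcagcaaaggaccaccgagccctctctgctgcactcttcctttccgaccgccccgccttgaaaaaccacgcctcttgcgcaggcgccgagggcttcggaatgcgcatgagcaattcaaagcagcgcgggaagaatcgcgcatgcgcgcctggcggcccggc
Dbf4: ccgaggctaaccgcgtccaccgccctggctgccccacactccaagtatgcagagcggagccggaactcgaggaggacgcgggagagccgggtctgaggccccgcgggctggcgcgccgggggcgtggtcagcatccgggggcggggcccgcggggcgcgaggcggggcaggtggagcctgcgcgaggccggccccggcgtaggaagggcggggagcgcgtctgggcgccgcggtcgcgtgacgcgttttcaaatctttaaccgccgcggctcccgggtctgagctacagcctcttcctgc

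The other letters searched gave fewer contrasts. CCAAT was found in the windows of 5 of 9 members (Mcm2, Mcm3, Mcm5, Mcm6 and Mcm7) against 41.1% of all symbols, and not in those of Cdc7, Dbf4, Cdc6 and Cdt1. The E-box CACGTG, the sequence that BMAL1 and CLOCK are known to bind, was found in 0 of 9 members against 8.09% of all symbols. With only 9 members, a count of 0 is near that background.

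The libraries held between 71145068 and 104017800 reads on genes. Arntl, the gene symbol of Bmal1, had 1700.4, 3489 and 2928 normalized counts in the control libraries and 1779, 2747 and 2415 in the Bmal1;CKO libraries, so the groups overlapped and the deletion was not visible in the summed reads of the gene (log2 fold change -0.19, SE 0.36, limma-trend adjusted p = 0.924, and -0.49 to 0.029 with any 1 library left out). Reads were counted per gene and not per exon, so these values cannot show whether part of the gene was lost. Directions are therefore those of the libraries labelled control and Bmal1;CKO. All 12 endothelial markers were detected in every library, and 12 of 12 had a lower mean in Bmal1;CKO, the median of their log2 fold changes being -0.54. Summed microglia markers were higher than summed endothelial markers in every library, at 1386183 to 4103347 against 184575 to 357054 normalized counts in control. The ratio of the median microglia marker to the median endothelial marker was 11.03, 7.43 and 11.7 in control and 19.2, 27.3 and 12.5 in Bmal1;CKO, with no overlap. Summed rod markers were also higher than summed endothelial markers in every library, at 438335 to 479204 normalized counts in control. In Bmal1;CKO 8 of 9 rod markers had a lower mean and 5 of 5 tested Muller glia markers a higher one. Over all genes 43.4% had a lower mean. RNA of other cell types was thus abundant in these libraries, and in bulk RNA fewer cells of a type and less RNA per cell cannot be told apart. Library 3 held 45558 normalized counts of pericyte markers against 2354 to 8163 in the other 5 libraries. Library 1 stood apart too, with a mean Pearson correlation of 0.808 to the other libraries against 0.857 to 0.8996 for the rest, as a description over all tested genes, and with the pericyte marker Abcc9 and the retinal progenitor markers Sox2, Fgf15 and Sfrp2 at 0.

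Of the 10 members, 4 had a higher mean log2 level in Bmal1;CKO and 6 a lower one, and their median log2 fold change was -0.05 against 0.11 for all 20459 genes tested. No member passed an FDR of 0.05 in limma-trend, the test used throughout unless another is named, on log2(normalized count + 1). Neither did any other gene, a count of 0 against 1007 genes at an unadjusted p under 0.05 and 67 genes at FDR under 0.05 in DESeq2 (0.327%), none of them a member. Cdc7 alone among the members had an unadjusted p under 0.05 (4.92% of all genes had) and alone had groups that did not overlap (11.2% of all genes). Split by direction, 1.75% of all genes were lower in Bmal1;CKO and 3.17% higher by unadjusted p, and 4.54% were lower and 6.62% higher by groups that did not overlap. In DESeq2, where Cdc7 also had an unadjusted p under 0.05, 3.34% of all genes were lower by that measure. With 1 of 10 members, the share is near the background.

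**Figure D1:**
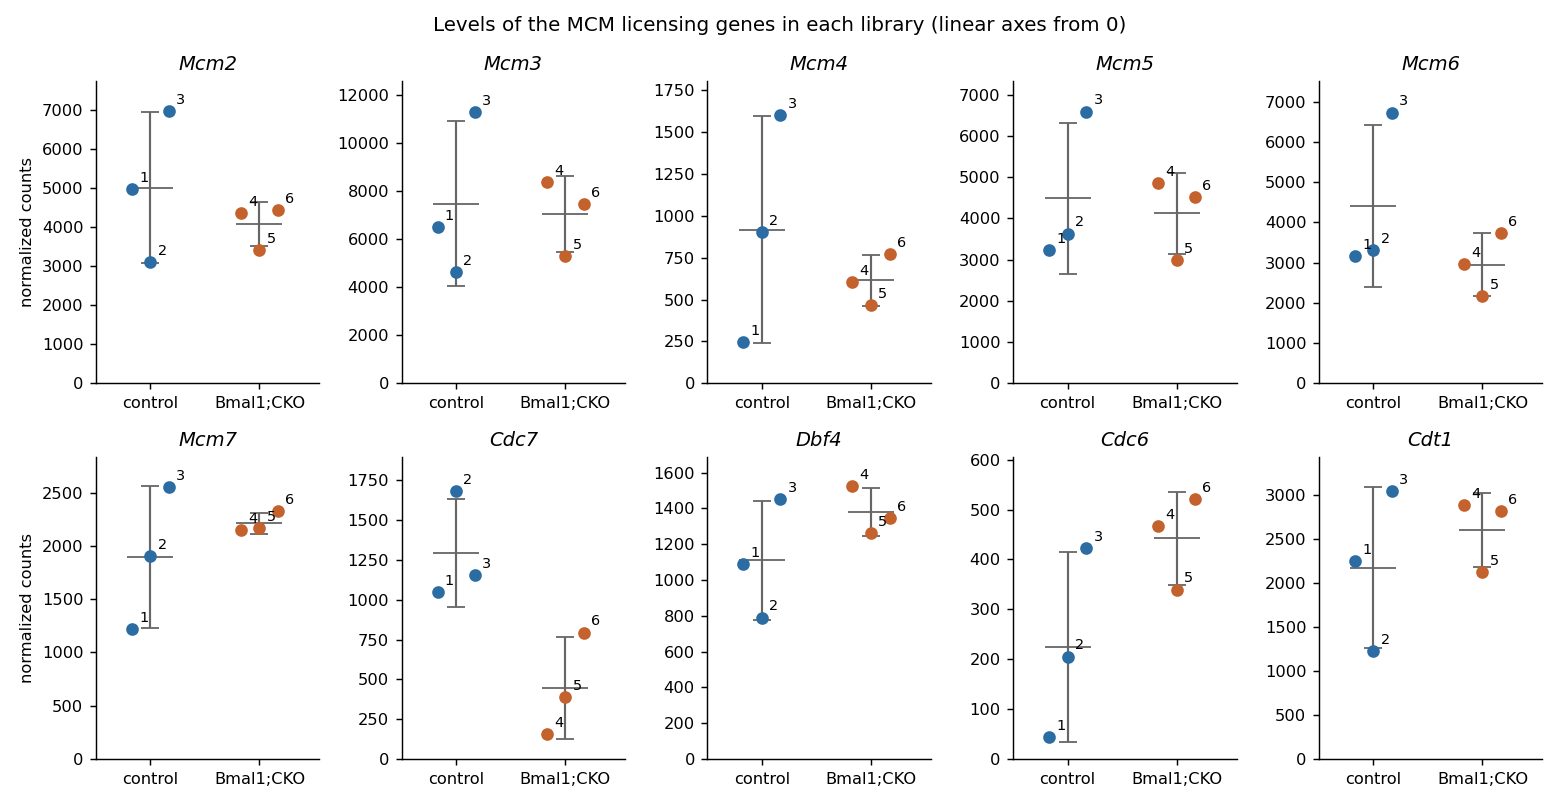
Normalized counts (reads divided by the size factor of the library) of the 10 members in each of the 6 libraries, on linear axes that start at 0. Points are libraries with their numbers, the horizontal line is the group mean and the bar its SD (n = 3). Cdc7 is the only panel in which the groups do not overlap, at 1048 to 1681 in control against 158 to 793 in Bmal1;CKO, and library 3 is the highest point for all of Mcm2 to Mcm7.

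Cdc7 (ENSMUSG00000029283, chr5:106964322-106984432) encodes the catalytic subunit of the kinase. It had 1048, 1681 and 1155 normalized counts in the control libraries and 158, 389.5 and 793 in the Bmal1;CKO libraries, from 852, 1811 and 1616 reads and 112, 451 and 963 reads. Every Bmal1;CKO library lay under every control library, and library 4 was the lowest. The control mean of 1294 ± 339 (SD, n = 3) was 2.90-fold that of Bmal1;CKO, 447 ± 322. The log2 fold change was -1.79 (SE 0.62, 95% interval -3.24 to -0.34), with a limma-trend p of 0.0218 before and 0.883 after adjustment over all genes. The exact permutation test gave p = 0.1 (two-sided), the smallest that 3 against 3 libraries allow.

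The size of the Cdc7 difference rested on single libraries. Its sign could not turn with 1 library left out, because the groups did not overlap. Over all 15 alternative fits the log2 fold change lay between -2.35 (without library 6) and -1.19 (without library 4), and 13 of the 15 had an unadjusted p under 0.05. The exceptions were the fits without library 2, at -1.59 (limma-trend adjusted p = 0.852), and without library 4 (limma-trend adjusted p = 0.978). On the recovered reads edgeR's quasi-likelihood test gave -1.52 (adjusted p = 0.9998) and DESeq2 -1.53 (adjusted p = 0.581). Over the alternatives the adjusted p of Cdc7 ranged from 0.410 to 0.9999.

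Cell type markers moved with these libraries. Cdc7 per median endothelial marker was 0.115, 0.225 and 0.132 in control and 0.0293, 0.110 and 0.0837 in Bmal1;CKO. The groups were close on this ratio, with library 5 just under library 1. Of 7 retinal progenitor markers (Hes1, Hes5, Sox2, Fgf15, Sfrp2, Atoh7 and Lhx2), some of which other retinal cells also express, 6 had a higher mean in Bmal1;CKO and 4 of these had groups that did not overlap, as 6.62% of all genes had in that direction. Their summed level was 8832, 14365 and 8303 normalized counts in control and 33652, 16044 and 12057 in Bmal1;CKO. The groups overlapped on this sum, and library 4 was the highest for it and the lowest for Cdc7. The part of other cell types in the result was not tested.

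Dbf4 (ENSMUSG00000002297, chr5:8396973-8422716), the activating subunit, had 1088, 789.7 and 1453 normalized counts in control and 1526, 1263 and 1346 in Bmal1;CKO. Its groups overlapped, and library 4, the lowest for Cdc7, was the highest for Dbf4. Dbf4 differed by 0.35 on the log2 scale (SE 0.35, 95% interval -0.46 to 1.16, limma-trend adjusted p = 0.884), by 0.13 without library 2 and by 0.57 without library 3.

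The balance of the kinase pair differed between the groups as a ratio within each library. Cdc7 per Dbf4, each per kb of its principal transcript, was 0.740, 1.63 and 0.610 in control and 0.0792, 0.237 and 0.452 in Bmal1;CKO. The ratio was lower in all 3 Bmal1;CKO libraries, and it does not depend on the scaling of the libraries. The mean log2 ratio differed by -2.15 (Bmal1;CKO minus control), and by -2.72 to -1.46 with any 1 library left out. The lack of overlap fixes the sign of that range. This ratio holds the Cdc7 values given above and is not a second observation of them.

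The 6 helicase subunits gave no common direction that survived the loss of a library. Their median log2 fold change was -0.16, with 5 lower and 1 higher in Bmal1;CKO, where 43.4% of all genes had a lower mean. Library 3 was the highest of the 6 for all 6 subunits, and without it only Mcm6 had a lower mean and the median was 0.28. Without library 5 the median was 0.041. The high pericyte markers of library 3 are given above, and their part in the result was not tested.

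Mcm2 (ENSMUSG00000002870, chr6:88883474-88898780), the subunit that the CDC7 kinase is best known to phosphorylate together with MCM4 and MCM6, had 4968, 3103 and 6979 normalized counts in control and 4369.9, 3419 and 4439 in Bmal1;CKO. The Bmal1;CKO libraries all lay inside the control range, and the log2 fold change was -0.23 (SE 0.34, 95% interval -1.02 to 0.56, limma-trend adjusted p = 0.905).

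Mcm3 (ENSMUSG00000041859, chr1:20802968-20820312) had 6494, 4633 and 11268 normalized counts in control and 8357, 5281 and 7438 in Bmal1;CKO, and Mcm5 (ENSMUSG00000005410, chr8:75109569-75128439), the subunit beside MCM2 at the gate through which the ring opens, had 3233, 3630.2 and 6597 against 4859, 2995 and 4512. In both genes library 3 was highest and the groups overlapped. The log2 fold changes were -0.016 for Mcm3 (SE 0.37, 95% interval -0.88 to 0.84) and -0.08 for Mcm5 (SE 0.35, 95% interval -0.90 to 0.74), with limma-trend adjusted p of 0.994 and 0.970.

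Mcm4 (ENSMUSG00000022673, chr16:15623897-15637400) had 246, 905 and 1604 normalized counts in control and 605, 466 and 774 in Bmal1;CKO. Control library 1 was the lowest of all 6 libraries and control library 3 the highest, a 6.52-fold range. The log2 fold change was -0.24 (SE 0.70, 95% interval -1.87 to 1.39, limma-trend adjusted p = 0.951), and it was -1.0 without library 1 (limma-trend adjusted p = 0.566) and 0.35 without library 3.

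Mcm6 (ENSMUSG00000026355, chr1:128331590-128359664) had 3167, 3319 and 6735 normalized counts in control and 2956, 2159 and 3741 in Bmal1;CKO. Libraries 4 and 5 lay under all control libraries and library 6 above 2 of them. The log2 fold change was -0.52 (SE 0.38, 95% interval -1.40 to 0.36, limma-trend adjusted p = 0.883), the lowest of the 6 subunits, and it stayed negative in all 15 alternatives, from -0.72 to -0.17.

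Mcm7 (ENSMUSG00000029730, chr5:138164583-138172422) had 1219, 1906 and 2553 normalized counts in control and 2149, 2164 and 2325 in Bmal1;CKO. The Bmal1;CKO libraries lay close together between control libraries 2 and 3, and the log2 fold change was 0.29 (SE 0.34, 95% interval -0.50 to 1.07, limma-trend adjusted p = 0.890) and was 0.0034 without library 1. Exons of Mcm7 share 64 bases with Cops6 and 321 bases with Ap4m1 on the opposite strand, the strand setting of the counting is not stated, and Cops6 was the more abundant gene at 8674 to 12342 normalized counts, so the level of Mcm7 is less certain than those of the other subunits. The microRNA genes Mir25, Mir93 and Mir106b lie inside Mcm7 and had 0 to 1.43 normalized counts.

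**Figure D2:**
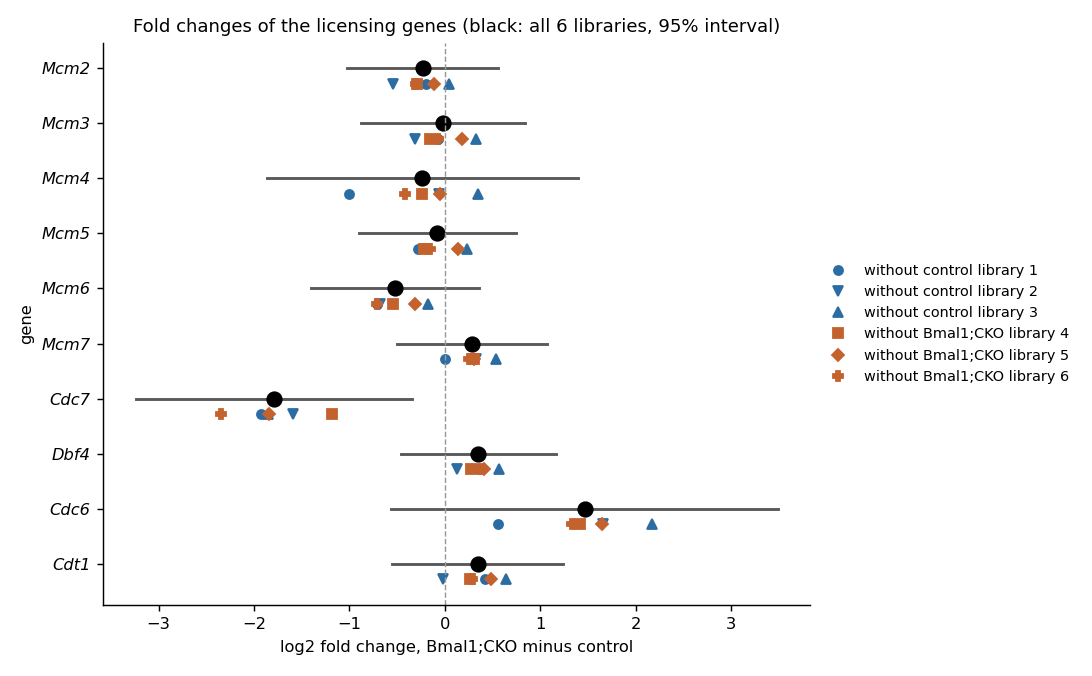
Log2 fold change (Bmal1;CKO minus control) of the 10 members with the 95% interval of limma-trend over all 6 libraries (black points and bars), and the same value with each library left out (coloured symbols, no interval). The interval of Cdc7, -3.24 to -0.34, is the only one that leaves out 0, and the values without library 3 (blue triangles pointing up) lie to the right of 0 for Mcm2, Mcm3, Mcm4 and Mcm5.

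Within a library the subunits can be set against each other per kb of principal transcript, where every subunit shares the same depth and the same mixture of cells. Between libraries that mixture differed, as the marker ratios above show, and its part in the shares was not tested. Mcm3 had the highest level of the 6 in every library and Mcm4 the lowest, at 1.12% to 4.53% of their sum. Mcm6 made up 17.7%, 20.5% and 20.4% of the sum in control and 13.7%, 14.1% and 17.4% in Bmal1;CKO. The share of Mcm6 was thus lower in all 3 Bmal1;CKO libraries, with library 6 just under library 1. The means differed by -4.45 percentage points (-5.60 to -3.77 with any 1 library left out, where the lack of overlap fixes the sign). This was 1 of 6 shares, while 11.2% of all genes had counts that did not overlap in either direction. The share has no test.

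The shares of the other 5 subunits overlapped between the groups. Mcm7 ranged from 6.70% to 11.6% in control and from 9.80% to 13.9% in Bmal1;CKO. Mcm6 per Mcm7 was 2.64, 1.77 and 2.69 in control and 1.40, 1.02 and 1.64 in Bmal1;CKO, again with no overlap. This ratio was chosen after its values were seen, carries the uncertainty of Mcm7 noted above and has no test.

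**Figure D3:**
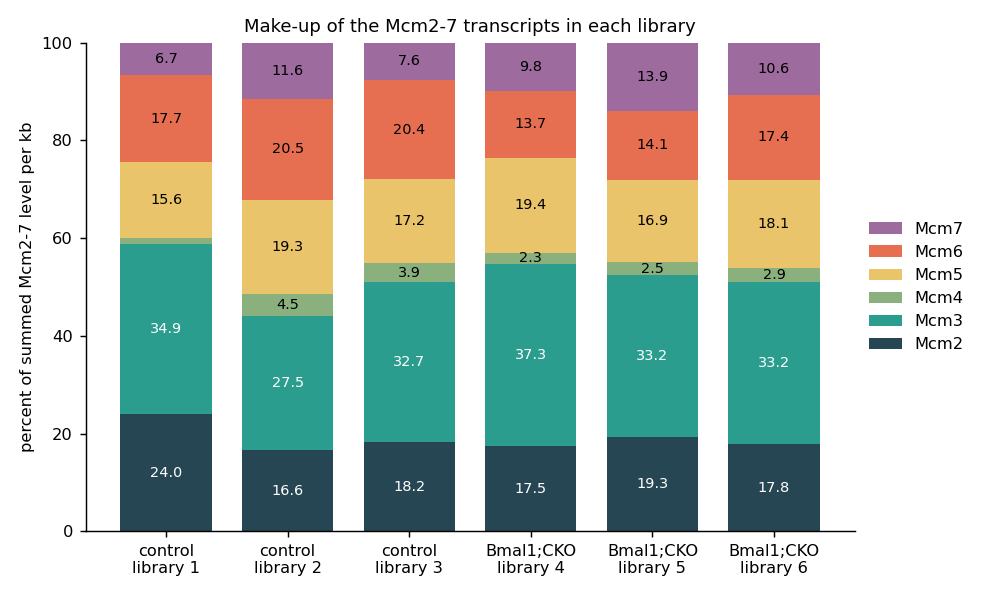
Percent of the summed Mcm2 to Mcm7 level (normalized counts per kb of principal transcript) that each subunit took in each library, stacked to 100. Mcm3 is the widest band in every library, Mcm4 the narrowest (1.12% in library 1, where it is not labelled), and the Mcm6 band is 17.7% to 20.5% in control against 13.7% to 17.4% in Bmal1;CKO.

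Cdc6 (ENSMUSG00000017499, chr11:98907801-98923940), the ATPase that helps the origin recognition complex load the ring, had 44.3, 205 and 423 normalized counts in control and 467, 339 and 521 in Bmal1;CKO. Libraries 1 and 2 were below all Bmal1;CKO libraries and library 3 was above library 5, so the groups overlapped. Library 1 held only 36 reads of the gene. The log2 fold change was 1.46 (SE 0.87, 95% interval -0.57 to 3.49, limma-trend adjusted p = 0.883), the widest interval of the 10 members. It was 0.56 without library 1 and 2.18 without library 3 (limma-trend adjusted p = 0.386).

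Cdt1 (ENSMUSG00000006585, chr8:122568015-122573554), which brings the ring to the origin, had 2245, 1223 and 3047 normalized counts in control and 2880.4, 2120.4 and 2812 in Bmal1;CKO. The Bmal1;CKO libraries lay inside the control range, with a log2 fold change of 0.35 (SE 0.39, 95% interval -0.55 to 1.24, limma-trend adjusted p = 0.888), and -0.020 without library 2. Gm20388 overlaps Cdt1 in the annotation and was listed at 0 in all 6 libraries.

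Ordered by the mean level per kb over the 6 libraries, Mcm3 came first at 2390.4 normalized counts per kb, then Mcm2 at 1349, Mcm5 at 1273, Mcm6 at 1264, Cdt1 at 1091, Mcm7 at 693, Dbf4 at 518, Cdc7 at 278, Mcm4 at 214 and Cdc6 at 130.3. The library ranges of each pair of neighbours in this order overlapped. Within libraries, Mcm3 was above Mcm2 in all 6, so this pair kept its order in spite of the overlap. With exons merged over all transcripts in place of the principal transcript, a choice added after seeing the data, Mcm2 moved from rank 2 to rank 5 and Dbf4 from rank 7 to rank 9, while Mcm3 stayed first and Cdc6 last.

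The members varied more among control libraries than among Bmal1;CKO libraries. The SD of the log2 level was larger in control for 9 of the 10, with a median of 0.60 against 0.33. Cdc7 was the exception, with 0.36 in control and 1.17 in Bmal1;CKO. A larger control SD was also found in 74.95% of all genes tested, so the other 9 follow a pattern of the libraries as a whole.

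The rest of the licensing machinery was described from 29 further genes, of which 28 had enough reads to be tested (Gmnc had not). Of these, 13 had a higher and 15 a lower mean in Bmal1;CKO (median -0.12 on the log2 scale), and none passed an FDR of 0.05 (limma-trend adjusted p = 0.883 for Orc2, Orc5, Topbp1, Mtbp, Recql4 and Mcm9). At an unadjusted p under 0.05 there was 1 gene in each direction, and 5 of the 28 had groups that did not overlap, against 4.92% and 11.2% of all genes.

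All 6 genes of the origin recognition complex, which marks the origins, had a lower mean in Bmal1;CKO, where 43.4% of all genes had one, and their median difference was -0.49 on the log2 scale. Without library 3 the count was 5 of 6. Orc2 had 1143, 852 and 1004 normalized counts in control and 523, 576 and 835 in Bmal1;CKO. Orc5 had 1234, 1270.4 and 1159 against 857, 922 and 1075. In both genes every Bmal1;CKO library lay under every control library, with log2 fold changes of -0.65 (SE 0.38) and -0.37 (SE 0.31). For the other 4 genes of the complex the groups overlapped.

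Among the factors that turn the loaded ring into a working helicase, Topbp1 and Mtbp had groups that did not overlap. Topbp1, a scaffold for this step, had 1225, 1220.3 and 1265 normalized counts in control and 553, 954 and 498 in Bmal1;CKO. Its control libraries were nearly equal and all above the Bmal1;CKO libraries, and the log2 fold change was -0.95 (SE 0.39, 95% interval -1.85 to -0.05, limma-trend adjusted p = 0.883). Mtbp, the partner of the firing factor TICRR, had 440.5, 366 and 387 against 134, 314 and 241 normalized counts, with a log2 fold change of -0.87 (SE 0.57). The unadjusted p of Topbp1 was under 0.05 here and in 9 of the 15 alternatives.

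Recql4, a helicase needed for origin firing, was at 0 reads in libraries 1 and 2 and at 171 normalized counts in library 3, against 101, 174 and 269 in Bmal1;CKO. Library 3 lay among the Bmal1;CKO libraries, so the groups overlapped. Its unadjusted p was under 0.05 (limma-trend adjusted p = 0.883), and the fitted fold change of a gene at 0 in 2 libraries depends on the added count and is not a size. The related family member Mcm9, which acts in DNA repair with Mcm8, had 271, 388 and 499 normalized counts in control and 616, 579.6 and 568 in Bmal1;CKO. Its groups did not overlap and its log2 fold change was 0.65 (SE 0.46).

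Gmnn, which encodes the CDT1 inhibitor geminin, had 3352, 1648 and 1442 normalized counts in control and 2179, 1478 and 1259.6 in Bmal1;CKO. The groups overlapped, library 1 was highest, and the log2 fold change was -0.32 (SE 0.41, limma-trend adjusted p = 0.897). An E2F match lay in the start-site windows of 7 of the 21 further licensing genes with a window, namely Orc1, Orc3, Gins3, Topbp1, Dtl, Mcmbp and Mcm8. Of the same 21 genes, 14 had a CCAAT and 2 the E-box, against 41.1% and 8.09% of all symbols.

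**Figure D4:**
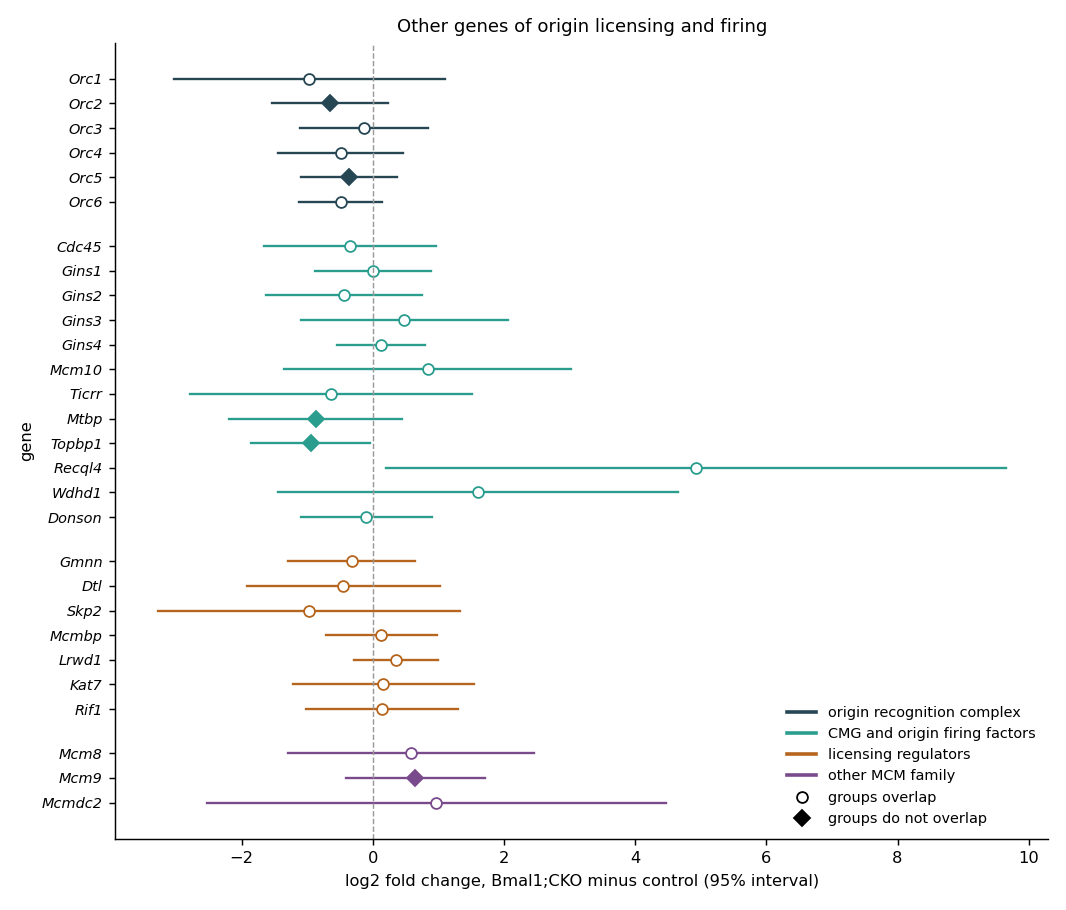
Log2 fold change (Bmal1;CKO minus control) with its 95% interval from limma-trend for the 28 tested genes of the further licensing lists, coloured by role. Filled diamonds mark the 5 genes whose groups did not overlap (Orc2, Orc5, Mtbp, Topbp1 and Mcm9), and all 6 genes of the origin recognition complex lie to the left of 0.

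Of 10 general markers of dividing cells, 2 had a higher and 8 a lower mean in Bmal1;CKO, where 43.4% of all genes had a lower one, and their median log2 fold change was -0.42. The median marker had 2224, 1899.1 and 2387 normalized counts in control and 1884, 1489.9 and 1693 in Bmal1;CKO. Every Bmal1;CKO library thus lay under every control library, with library 4 only just under library 2. Single markers did not overlap for 3 of 10, all lower, against 4.54% of all genes. Mki67 had a log2 fold change of 0.12 (SE 0.33) and Pcna, the sliding clamp of the replication fork, -0.30 (SE 0.39), both with overlapping groups and limma-trend adjusted p of 0.944 and 0.898. Top2a, which untangles DNA and peaks in late cycle, had 4394, 1485 and 1409 normalized counts in control and 1291, 1036 and 1147 in Bmal1;CKO. Its groups did not overlap, library 1 stood far above the rest, and the log2 fold change was -0.86 (SE 0.48, limma-trend adjusted p = 0.883) and -0.33 without library 1.

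A pair of cyclins in that list, named after their values were seen, had an unadjusted p under 0.05 and lower levels in Bmal1;CKO, against 1.75% of all genes. Ccnb1, the mitotic cyclin B1, had 1521, 888 and 839 normalized counts in control and 553, 407 and 507 in Bmal1;CKO. Ccne2, a cyclin of the entry into S phase, had 193, 569 and 290.1 against 39.4, 98.5 and 135, with only 28 reads in library 4. Both lay lower in every Bmal1;CKO library, with log2 fold changes of -1.10 (SE 0.42) and -1.96 (SE 0.80) and a limma-trend adjusted p of 0.883 each. The more abundant Ccne1 of the same list had 1373, 1114 and 1199 normalized counts in control and 1409, 678 and 635 in Bmal1;CKO. Its groups overlapped, and library 4, the lowest for Ccne2, was its highest. The unadjusted p was under 0.05 in 12 of 15 alternatives for Ccnb1, the exceptions being without libraries 1, 5 or 6, and in 11 of 15 for Ccne2, the exceptions being without libraries 2, 3, 4 or 5.

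The genes whose pattern over the 6 libraries was most like that of the helicase subunits were found by Pearson correlation of log2(normalized count + 1) with the mean standardized level of Mcm2 to Mcm7, among the 14958 genes outside the lists that had 10 or more reads in each library. They were Zfand2a (r = 0.980), Slc39a11 (0.979), 4930519F09Rik (0.979), Mex3c (0.973) and Gm15975 (0.973). Zfand2a had 1748, 1731 and 3923 normalized counts in control and 2549.9, 1725 and 2277 in Bmal1;CKO, so it too was highest in library 3. In all, 108 genes had r above 0.9 over these 6 points, which share their libraries with the members. The value is a description and has no test.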

How the data were processed

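RNA of the sorted cells was amplified (Smart v4) and made into Nextera XT libraries, which the authors sequenced, checked with FastQC, trimmed with Trimmomatic, aligned to mm10 (GRCm38) with Bowtie, counted per gene with featureCounts and scaled with DESeq2. The strand setting and the aligner version are not given in the sources used here. The deposited values are a signal per gene, the count of reads divided by the size factor of the library (0.711 to 1.40). Multiplied back, 100.0% of the values were whole within 0.01, so the reads could be recovered. Columns of the authors' own comparison (fold changes and p-values) were not used. Columns name the genotype but not the labelled sample, so libraries carry the column number.

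The 20459 genes that reached 10 reads in 3 or more libraries were tested with limma-trend (limma 3.58.1, R 4.3.3) on log2(value + 1), genotype only, all 6 libraries, with Benjamini-Hochberg adjustment. This log-scale test was the main one because the deposited unit is not a count. The alternatives were edgeR 4.0.16 (quasi-likelihood, TMM or deposited size factors), limma-voom, DESeq2 1.42.0, other filters and pseudocounts, TMM scaling and leaving out each library. Merged exon lengths were added after seeing the data. In data simulated from these libraries with 200 changed genes among 20459, limma-trend recovered 35.0% of them with 6 false calls, edgeR 35.5% with 6 and DESeq2 58.0% with 143. These percentages hold only for the sizes of change that were put in. Each of those was larger in size than the log2 fold change of any member over all 6 libraries. Recovery at the members' own fold changes was not tested. Floors and intervals on reads cover counting error only.

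The genes named were the members, the further licensing genes whose groups did not overlap or whose unadjusted p was under 0.05, Gmnn, Mki67, Pcna, Top2a, the 5 genes most like Mcm2 to Mcm7 and genes that overlap a member. Arntl was named as the targeted gene, marker genes of other cell types and genes with an E2F match as members of their lists, and Ccnb1, Ccne1, Ccne2 and E2f1 after their values were seen. 1 marker of the retinal progenitor list is not reported here. The members and lists were chosen with earlier results of these data known. Gene positions and lengths are from GENCODE M21 (GRCm38). Start-site windows are from RefSeq. Figures were drawn with matplotlib 3.10.9.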

Additional observations from a re-analysis of the deposited data

How the results depend on the processing

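No member passed an FDR of 0.05 under any of the 15 alternatives. The number of genes that did, 0 as reported, was 67 in DESeq2, 1 with genes of at least 1 read in total, 1 with at least 10 reads in every library, and 0 to 6 with a library left out. Leaving out a library gave 0 to 2 members with an unadjusted p under 0.05 (1 with all libraries) and 2 to 7 members with a lower mean (6 with all libraries). The members' median log2 fold change, -0.05, became 0.34 without control library 3 and 0.16 without Bmal1;CKO library 5, and ranged from -0.18 to 0.34 with 1 library left out. Signs turned without control library 3 for Mcm2 (0.044), Mcm3 (0.33), Mcm4 (0.35) and Mcm5 (0.24), without Bmal1;CKO library 5 for Mcm3 (0.18) and Mcm5 (0.14), without control library 2 for Cdt1 (-0.020) and Mki67 (-0.14), and without control library 1 for Gmnn (0.049) and Pcna (0.028). With 1 library left out these values ranged from -0.54 to 0.044 for Mcm2, -0.31 to 0.33 for Mcm3, -1.0 to 0.35 for Mcm4, -0.28 to 0.24 for Mcm5, -0.020 to 0.64 for Cdt1, -0.56 to 0.049 for Gmnn, -0.14 to 0.44 for Mki67 and -0.47 to 0.028 for Pcna. The cause was not tested. Of the other licensing genes, 2 had an unadjusted p under 0.05, against 0 in both edgeR fits, 1 in DESeq2, 1 with at least 10 reads in every library, and 0 to 2 with a library left out. The median of all genes was 0.11 in limma-trend and -0.03 in edgeR and DESeq2, with 648 of 1007 unadjusted calls higher in limma-trend and 389 of 777 in edgeR. In limma-trend it was 0.0006 without control library 1. The 43.4% of all genes with a lower mean, used above, is thus that of limma-trend with all libraries and moves with the fit. No paired analysis was possible because the columns of the table cannot be tied to the replicate numbers of the labels.

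With 3 libraries a group, the standard errors of the members were 0.34 to 0.87 on the log2 scale. Differences of that size, and some larger than their standard error, are not resolved. The 95% intervals of Mcm6 (-0.52, SE 0.38) and Cdc6 (1.46, SE 0.87) both held 0, before any adjustment over all genes. The fewest reads of any member were the 36 of Cdc6 in library 1. Mcm4 was lowest in library 1 too, with 200 reads, and Cdc7 was lowest in library 4, with 112 reads. Libraries 1 and 4 had the fewest genes with a read, at 21598 and 22142 against 23889 to 27904 in the others. The part of library quality in these low values was not tested.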

Other observations

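Values within libraries that belong to no comparison above are these. Cdc6 per Cdt1, per kb, was 0.0169 in library 1 and between 0.119 and 0.159 in the other 5 libraries. Cdt1 per Gmnn, in normalized counts, was 0.670, 0.742 and 2.11 in control and 1.32, 1.43 and 2.23 in Bmal1;CKO, with overlapping groups. The highest subunit of the helicase exceeded the lowest, per kb, by 31.2-fold in library 1 and by 6.06-fold to 16.4-fold in the others. Mcm4 per Mcm6, per kb, was 0.0630 in library 1, 0.221 and 0.193 in libraries 2 and 3, and 0.166, 0.175 and 0.168 in Bmal1;CKO. Library 1 was thus the lowest for both Mcm4 and Cdc6 on these ratios, which were chosen after their values were seen. E2f1, a transcription factor of the E2F family, had 2139.7, 2313 and 6279.8 normalized counts in control and 7037, 5977 and 4844 in Bmal1;CKO, with a log2 fold change of 0.90 (SE 0.44, limma-trend adjusted p = 0.883) and overlapping groups. It too was named after its values were seen, and library 3 lay among the Bmal1;CKO libraries.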
